A study of Mus musculus with 82 samples.

Results

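The compound 991 was given for 4 h to mouse embryonic fibroblasts (MEFs) without either catalytic subunit of the energy-sensing kinase AMPK (AMP-activated protein kinase), and 8 Affymetrix arrays of these cells, 4 with 991 and 4 with vehicle, were compared out of 82 arrays in the series. The arrays were selected by their titles and not by any measured value. The cells are of C57BL/6 background with the genotype AMPK alpha1-/- alpha2-/- and are called dKO below; they grew in DMEM-Glutamax with fetal calf serum. Treated cells received 991 at 10 µM and the controls DMSO, although the titles of the control arrays read "No Treat". The same dose and time were used in control MEFs (WT, 3 arrays with 991 and 4 with vehicle). Another activator, AICAR at 2 mM for 4 h, was given to dKO and to WT MEFs (4 arrays each). These arrays enter the fit that estimates the spread. In dKO primary hepatocytes 991 was given at 3 µM for 4 h (10 arrays, with 9 for vehicle). Their fit also takes in WT hepatocytes and AICAR at 300 µM. All MEF arrays are technical replicates per the labels, with no biological replicate named, so p-values measure the spread between arrays and not between cultures or embryos, and the effect of the genotype cannot be told apart from that of the line. The series asks which responses to AMPK activators need AMPK, and the comparison in dKO cells lists genes that differed with 991 without it. With no biological replicate named, an effect of 991 cannot be told apart from a difference between the cultures.

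AMPK is a sensor of cellular energy built of a catalytic alpha, a scaffolding beta and a nucleotide-binding gamma subunit. Compound 991 activates it directly, by binding between the kinase domain of the alpha subunit and the beta subunit, whereas AICAR is converted in the cell to a mimic of AMP. In fibroblasts, active AMPK restrains anabolic metabolism and mTORC1 signalling and promotes autophagy and the transcription of lysosomal genes through the factors TFEB and TFE3, which folliculin (Flcn) controls at the lysosome.

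Values below are log2 intensities as deposited, levels are means ± standard deviation (SD), and changes are log2 differences ± standard error (SE) from a limma fit over the 23 MEF arrays. A gene was called when its Benjamini-Hochberg adjusted p over all 18193 genes was under 0.05, with no limit on the fold. Gene lists were chosen with earlier results of these data known, so counts within a list describe it and are no independent test. Medians of the 8 arrays lay between 6.21 and 6.25. The correlation between arrays of a group was 0.9987 to 0.9990 with vehicle and 0.9975 to 0.9987 with 991, and between the groups it was 0.9978 to 0.9986. The interquartile range of the values was 3.65 to 3.73 on the vehicle arrays, 3.60 on 991 arrays 1 and 2, and 3.81 and 3.76 on 991 arrays 3 and 4.

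The label of the cells was set against 16 fibroblast markers. With vehicle, dKO cells stood at 13.92 ± 0.00 for vimentin (Vim), 12.78 ± 0.02 for fibronectin (Fn1) and 13.50 ± 0.01 for Sparc. Col1a1 stood at 11.59 ± 0.07 against 12.61 in WT. The fibrillar collagen gene Col1a2 stood at 9.22 ± 0.06 against 13.90 in WT, the surface marker Thy1 at 4.88 ± 0.15 against 6.29, and the growth factor receptor gene Pdgfra at 4.98 ± 0.15 against 6.06. Sox2, a stem cell and neural transcription factor, stood at 9.24 ± 0.13 in dKO and at 2.89 in WT. Of the other 5 neural markers, Nes (10.81 against 9.81) and Tubb3 (8.73 against 7.41) also stood higher in dKO than in WT, Map2 stood lower (7.6 against 9.0), and Gfap (6.18 against 6.30) and Sox10 (6.67 against 6.75) lay close together. Of the other fibroblast markers, Fbln2 (5.98 against 10.44), Loxl1 (7.75 against 11.25) and Col3a1 (7.57 against 9.82) were lower in dKO. So were Postn (5.02 against 7.35) and Pdgfrb (9.23 against 10.38). S100a4, P4hb, Dcn and Lum lay close to WT, Dcn (5.60) and Lum (4.48) at low levels in dKO. The dKO cells carried general mesenchymal markers such as Vim, Fn1 and Sparc. Many other fibroblast markers were lower than in WT, and Sox2, Nes and Tubb3 were higher. No fibroblast marker was called with 991 (median change 0.00), and neither was any marker of epithelium (8), endothelium (7), leukocytes (9), muscle (6), fat (4), neural cells (6) or hepatocytes (4). Over all genes 3.46% were called, and in lists this short no call is close to that share. The mean level of the fibroblast markers ranged from 8.93 to 8.98 over the vehicle arrays and from 8.94 to 8.98 over the 991 arrays.

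Without AMPK, the arrays with 991 differed from the vehicle arrays by small changes in many genes. Of 18193 genes, 629 were called (3.46%), 342 of them higher (1.88%) and 287 lower (1.58%). No called gene reached a 1.5-fold change: the called changes ran from -0.58 to 0.45, with a median of 0.16 among the rises and -0.21 among the falls. Falls were the larger changes, with 55 called falls and 12 called rises of at least 0.3. Over all genes the median change was 0.01. The 4 arrays with 991 did not overlap the 4 vehicle arrays for 573 of the 629 genes, and over all genes the groups were apart for 1917 (10.5%). The same arrays made the calls, so the separation of called genes follows in part from the call and is no separate evidence. In WT cells the same treatment called 3582 genes (19.7%), 2555 of them higher (14%) and 1027 lower (5.65%). The WT count was 1889 without WT 991 array 2, 1984 without WT 991 array 3 and 2103 without WT vehicle array 1.

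The number of calls depended on single arrays. It was 302 without vehicle array 1, 312 without vehicle array 2, 356 without vehicle array 3 and 404 without 991 array 3, and 453 to 539 without any of the other 4. A core of 209 genes, 103 higher and 106 lower, was called in the same direction whichever of the 8 arrays was left out. The balance of directions moved as well: rises made up 54.4% of calls as deposited, 41.6% of 817 calls after quantile normalization, and 42.1% without 991 array 3. They made up 63.6% of 539 calls without 991 array 1, and 60.4% of 859 calls when the test took in the brighter genes alone, those with a mean level not below the median of all genes. With the interquartile range of each array as a covariate, 1210 genes were called, and these included all 629.

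**Figure D1:**
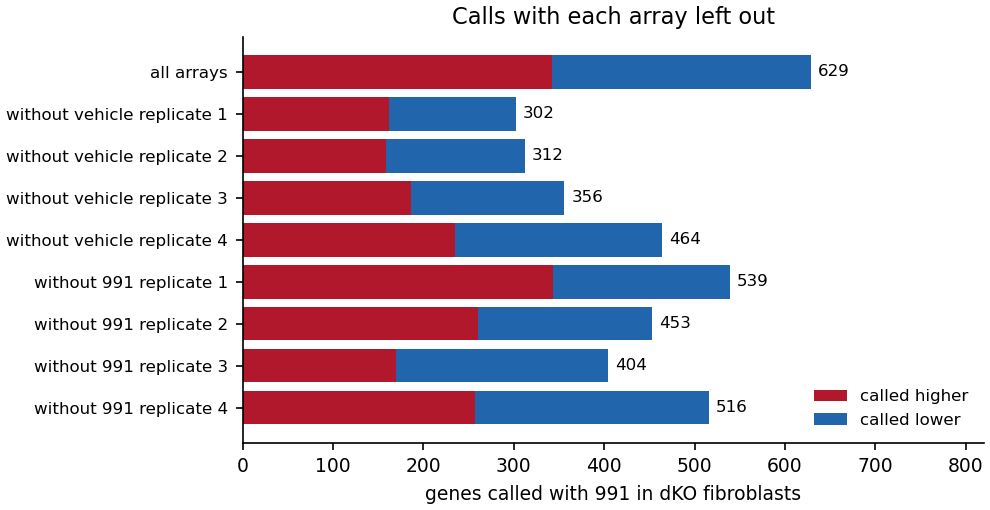
Number of genes called with 991 in dKO fibroblasts (x axis) with all arrays and with each of the 8 arrays left out (y axis); bars are stacked by direction. The count falls from 629 to between 302 and 539, lowest without vehicle array 1, and the share of rises is smallest without 991 array 3.

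The genes of the AMPK catalytic subunits were examined first. Prkaa1, which encodes the alpha1 subunit, stood at 8.35, 8.27, 8.17 and 8.25 with vehicle and at 8.21, 7.93, 8.55 and 8.43 with 991. Prkaa2, for alpha2, stood at 6.00, 5.89, 5.89 and 5.76 with vehicle and at 5.94, 6.00, 5.99 and 6.12 with 991. Both pairs of groups overlapped, and neither gene was called (0.02 ± 0.10, adjusted p = 0.953, and 0.12 ± 0.08, adjusted p = 0.492). What was deleted from each gene is not named in the labels, and a probe set outside the deletion does not check the knockout. None of 12 AMPK subunit and upstream kinase genes was called.

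Flcn stood at 9.04, 8.93, 8.95 and 8.86 with vehicle and at 8.69, 8.75, 9.01 and 8.99 with 991, with overlapping groups. Its change was -0.08 ± 0.07 (95% interval -0.22 to 0.05, adjusted p = 0.614). In WT it rose by 0.71 ± 0.07, and the difference between the genotypes, 0.79 with a 95% interval of 0.59 to 0.99, was called (adjusted p = 4.44e-06). Of 15 genes of the folliculin, Rag GTPase and MiT/TFE group, 1 rose in dKO, Lamtor1, a subunit of the lysosomal Ragulator scaffold (0.16 ± 0.04, adjusted p = 0.0307); it was not called after quantile normalization. In WT, 9 of the 15 rose and 1 fell. The shares of all genes called higher were 1.88% in dKO and 14% in WT.

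Lysosomal and sterol genes, most of which rose in WT, had fewer calls in dKO than in WT. Among 33 lysosome and autophagy genes 2 rose and none fell in dKO (median 0.02), beside 1.88% of all genes called higher. In dKO 15 of the 33 changes lay below 0, beside 8357 of 18193 over all genes. In WT 25 rose and none fell (median 0.20), beside 14% of all genes called higher there. The difference between genotypes was called for 15, beside 5.28% of all genes. The V-ATPase subunit gene Atp6v1b2 went from 9.92, 9.88, 9.93 and 9.93 to 10.06, 10.15, 10.08 and 10.07. All 4 arrays with 991 lay above the vehicle arrays, and the rise of 0.17 ± 0.04 (adjusted p = 0.0109) was smaller than the 0.45 ± 0.04 in WT (difference 0.27, 95% interval 0.15 to 0.39, adjusted p = 0.00423); its dKO call was lost with the mean of its 4 probe sets. Scarb2, the receptor that carries glucocerebrosidase to lysosomes, rose by 0.13 ± 0.03 (adjusted p = 0.0143), a call lost without vehicle array 1 or 2 and with the mean of its probe sets.

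Of 20 sterol synthesis and uptake genes, 2 rose in dKO (median 0.08), and 4 without 991 array 1 or vehicle array 2. With the array width as a covariate 5 rose. In dKO 2 of the 20 changes lay below 0, beside 8357 of 18193 over all genes. In WT 19 rose (median 0.40), and 14 differed between the genotypes. The shares of all genes called higher were 1.88% in dKO and 14% in WT, and 5.28% differed. Nsdhl, an enzyme of the late cholesterol pathway, stood at 10.68, 10.84, 10.77 and 10.78 with vehicle and at 10.99, 10.95, 10.95 and 10.89 with 991. The arrays were apart and the rise was 0.18 ± 0.03 (adjusted p = 0.00277), against 0.31 ± 0.04 in WT; the difference of 0.13 (95% interval 0.02 to 0.23) was not called (adjusted p = 0.133). Sc5d, the sterol desaturase, rose by 0.15 ± 0.03 in dKO and by 0.41 ± 0.04 in WT. That difference was called (0.26, adjusted p = 0.00176), but of the 3 Sc5d probe sets only the brightest had a positive change in dKO, and the dKO call was lost with their mean and without 991 array 2.

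Transcription factor genes held the clearest fall. Prrx1, a homeobox factor of limb and craniofacial mesenchyme (chr1:163245119-163315145, GRCm38.p6), stood at 8.41, 8.45, 8.38 and 8.26 with vehicle and at 7.94, 8.0, 7.90 and 8.01 with 991. The highest array with 991 lay below the lowest vehicle array. The fall was 1.33-fold (-0.41 ± 0.04, adjusted p = 4.75e-07), and 5 of its 6 probe sets were lower with no overlap. It kept its call in all 16 alternative settings of the analysis, with adjusted p from 8.62e-08 to 0.00149. In WT cells, where the level was 11.47 ± 0.01 with vehicle, Prrx1 changed by 0.02 ± 0.04, and the difference between the genotypes was called (0.43, 95% interval 0.31 to 0.55, adjusted p = 3.56e-05).

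Other regulators fell too. Ikzf2, the zinc finger factor Helios, stood at 8.26, 8.30, 8.20 and 8.17 with vehicle and at 8.01, 7.86, 7.63 and 7.85 with 991, lowest on array 3. Its fall of 0.39 ± 0.07 (adjusted p = 0.000688) differed from the change of 0.10 ± 0.07 in WT (difference 0.49, adjusted p = 0.00202). Tfap4, a helix-loop-helix factor, fell in dKO by 0.35 ± 0.07 (adjusted p = 0.00347) and in WT by 0.27 ± 0.07 (adjusted p = 0.0122). Creb5, a bZIP factor, had a change of -0.40 ± 0.10 (adjusted p = 0.0219), but its arrays overlapped, 991 array 4 (5.97) lying above vehicle array 4 (5.89). Its call was lost in 7 of the 15 settings that tested genes below the median level: without 991 array 1, 2 or 3, without vehicle array 1, 2 or 3, and with the mean of its probe sets.

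A list of 32 mesenchymal transcription factors held 2 called falls, Prrx1 and Twist2, a repressor of osteoblast and muscle differentiation (-0.11 ± 0.03, adjusted p = 0.0336), and no call in the other direction. The list median was -0.06 against 0.01 over all genes, of which 1.58% were called lower. Twist2 fell by 0.11 ± 0.03 in WT too, and lost its dKO call in 8 settings, among them without 991 array 2, 3 or 4 or vehicle array 1, 2 or 3, where Prrx1 was the only call of the list. None of 29 Hox genes was called in dKO, beside 3.46% of all genes.

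**Figure D2:**
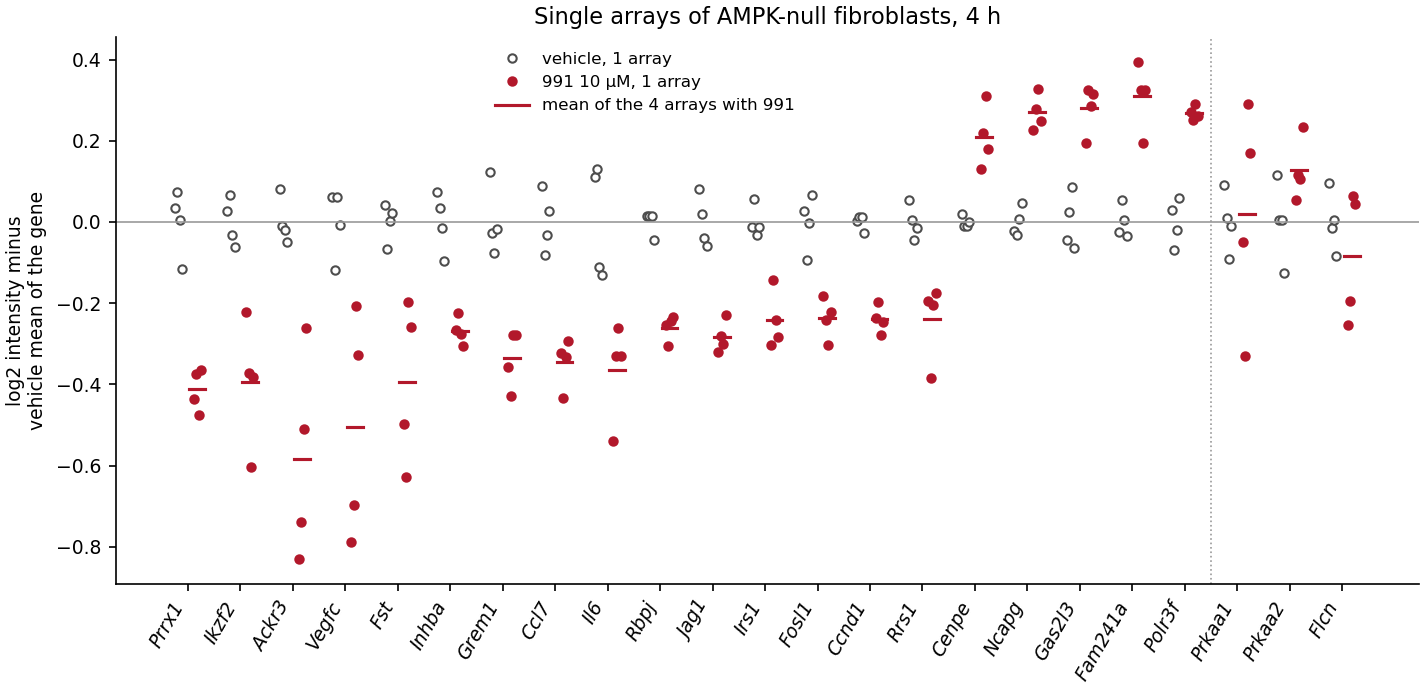
Log2 intensity of each array minus the vehicle mean of the gene (y axis) for 23 genes (x axis) in dKO fibroblasts; open circles are vehicle arrays, filled circles arrays with 991, and bars the mean of the 4 arrays with 991. The called genes left of the dotted line lie apart from the vehicle arrays, by -0.41 for Prrx1 and 0.31 for Fam241a, while Prkaa1 and Flcn overlap them.

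Secreted signals and adhesion molecules of inflammation were called in 1 direction. Of 34 cytokine, chemokine and NF-kB feedback genes, 7 fell and none rose (list median -0.08), beside 1.58% of all genes called lower. In this list 27 of the 34 changes lay below 0, beside 8357 of 18193 over all genes. Without vehicle array 1 the count was 4. In WT, 5 of the 34 rose and 3 fell, beside 14% of all genes called higher and 5.65% lower there. The difference between the genotypes was called for 9 of them, 8 with the higher value in WT, beside 5.28% of all genes.

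Promoters of the called cytokine genes are shown because NF-kB and AP-1 sites at such genes are textbook targets. Of the 7 genes, 4 have an entry in the RefSeq promoter table (GRCm38.p6), and the 250 bases before the start of transcription are given 5′ to 3′. Capitals mark matches to the AP-1 motif TGANTCA and to the NF-kB core GGNNTTTCC, on either strand.
Il6, chr5:30012864-30013113, plus strand: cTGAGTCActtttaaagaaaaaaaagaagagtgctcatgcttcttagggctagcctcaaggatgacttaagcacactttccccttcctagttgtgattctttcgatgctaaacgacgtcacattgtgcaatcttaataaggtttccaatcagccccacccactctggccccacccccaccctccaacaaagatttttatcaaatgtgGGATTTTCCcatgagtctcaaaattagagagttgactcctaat
Csf1, chr3:107760470-107760719, minus strand: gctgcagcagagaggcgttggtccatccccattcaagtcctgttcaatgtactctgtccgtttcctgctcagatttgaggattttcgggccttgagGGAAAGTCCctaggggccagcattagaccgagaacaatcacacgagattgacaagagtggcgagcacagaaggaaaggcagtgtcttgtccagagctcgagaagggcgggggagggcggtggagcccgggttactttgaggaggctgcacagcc
Cxcl12, chr6:117168285-117168534, plus strand: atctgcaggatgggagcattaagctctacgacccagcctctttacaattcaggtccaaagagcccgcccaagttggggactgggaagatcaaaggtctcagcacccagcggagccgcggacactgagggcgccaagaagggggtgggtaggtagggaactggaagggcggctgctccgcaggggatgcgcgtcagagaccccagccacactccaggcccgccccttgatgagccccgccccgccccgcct
Ptgs2, chr1:150099781-150100030, plus strand: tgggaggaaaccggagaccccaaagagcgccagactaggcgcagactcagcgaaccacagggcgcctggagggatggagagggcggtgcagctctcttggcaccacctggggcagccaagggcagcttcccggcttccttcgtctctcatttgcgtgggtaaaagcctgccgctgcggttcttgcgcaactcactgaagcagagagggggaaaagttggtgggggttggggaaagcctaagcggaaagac
The Il6 window holds 1 AP-1 match starting at -249 and 1 NF-kB core match at -43, counted from the start of transcription. Csf1 holds 1 NF-kB core match at -154, and the other two windows hold neither. The core was found in 4.93% of all 32851 windows of this length, in 5.10% of the 18109 windows of tested genes, in 6.33% of windows of genes called lower and in 5.40% of windows of genes called higher. The AP-1 motif was found in 6.75%, 5.62%, 5.06% and 2.27% of the same sets, and the palindromic CRE, TGACGTCA, in 1.55%, 2.12%, 0.949% and 3.12%.

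Among these genes, the monocyte chemokine gene Ccl7 stood at 7.32, 7.15, 7.2 and 7.26 with vehicle and at 6.91, 6.80, 6.90 and 6.94 with 991. The 4 arrays with 991 were the lower ones, and the fall was 0.35 ± 0.06 (adjusted p = 0.000688), kept in all 16 settings. In WT its change was 0.15 ± 0.06 (adjusted p = 0.0855), and the genotypes differed by 0.50 (95% interval 0.32 to 0.67, adjusted p = 0.000488). Its neighbour in function Ccl2 fell by 0.19 ± 0.04 (adjusted p = 0.00918), the macrophage growth factor gene Csf1 by 0.17 ± 0.04 (0.00494), the homing chemokine gene Cxcl12 by 0.15 ± 0.03 (0.0128) and the leukocyte adhesion gene Vcam1 by 0.21 ± 0.04 (0.00182). Csf1 fell in WT as well, by 0.18 (adjusted p = 0.00185), while Ccl2 and Cxcl12 were not called there and differed between the genotypes (0.25, adjusted p = 0.0128, and 0.18, adjusted p = 0.0311).

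Il6, the interleukin with the AP-1 and NF-kB matches, stood at 4.6, 4.62, 4.38 and 4.36 with vehicle and at 3.95, 4.16, 4.23 and 4.16 with 991, apart but near the dim end of the arrays. Its fall of 0.37 ± 0.10 (adjusted p = 0.0341) was lost in 7 settings, with adjusted p up to 0.134; these included leaving out vehicle array 1 or 2 and 991 array 1, 2 or 4. Ptgs2, the inducible cyclooxygenase, stood at 9.66, 9.43, 9.65 and 9.58 with vehicle and at 9.20, 9.17, 9.37 and 9.45 with 991. Its groups overlapped at 9.43 and 9.45, its second probe set changed by 0.00, and the call (-0.28 ± 0.07, adjusted p = 0.0219) was lost in 6 settings, among them without vehicle array 1 or 3 and 991 array 1 or 2. Ptgs2 rose in WT by 0.23 ± 0.08, and the genotypes differed by 0.52 (adjusted p = 0.0027). None of 19 interferon response genes was called in dKO, beside 3.46% of all genes.

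The chemokine receptor Ackr3, an atypical receptor that removes Cxcl12, had the largest called fall (chr1:90203980-90215724). It stood at 6.96, 6.87, 6.86 and 6.83 with vehicle and at 6.05, 6.14, 6.37 and 6.62 with 991. Arrays 1 and 2 were lowest, yet all 4 lay below the vehicle arrays. Its change was -0.58 ± 0.09 (adjusted p = 0.000492), between -0.69 and -0.50 in the 15 settings that tested it, and called in each.

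In the TGF beta, activin and BMP list (28 genes, median -0.04), 3 genes fell and 1 rose, beside 1.58% of all genes called lower and 1.88% higher. Fst encodes follistatin, which binds and neutralises activin. It stood at 8.18, 8.07, 8.14 and 8.16 with vehicle and at 7.64, 7.51, 7.94 and 7.88 with 991, lowest on arrays 1 and 2 and apart from vehicle. Its fall of 0.39 ± 0.09 (adjusted p = 0.011) missed the threshold without 991 array 2 (adjusted p = 0.055).

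Inhba, the activin A subunit that follistatin binds, stood at 9.08, 9.04, 8.99 and 8.91 with vehicle and at 8.74, 8.78, 8.73 and 8.70 with 991. It fell by 0.27 ± 0.04 (adjusted p = 7.59e-05), with no overlap, whereas its second, dim probe set changed by 0.07 and the mean of both was not called. Grem1, a BMP antagonist, fell by 0.34 ± 0.07 (adjusted p = 0.00382). In WT, Inhba changed by 0.02 and Grem1 by 0.11, neither called, and the genotypes differed for both (0.29, adjusted p = 0.00142, and 0.44, adjusted p = 0.00682). The BMP receptor gene Bmpr2 was called higher by 0.11 ± 0.03 on its brightest probe set only; another of its 3 probe sets was lower by 0.27 with arrays apart, and the call was lost without 991 array 2 or vehicle array 2.

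Vegfc, the lymphatic growth factor, stood at 8.27, 8.09, 8.27 and 8.20 with vehicle and at 7.42, 7.51, 8.0 and 7.88 with 991. Arrays 1 and 2 were again the lowest, and all 3 of its probe sets were lower with arrays apart. Its fall of 0.51 ± 0.13 (adjusted p = 0.0196) was lost in 5 settings, among them without 991 array 1 or 2 and vehicle array 1 or 3 (adjusted p up to 0.0827). Irs1, the adaptor of the insulin and IGF1 receptors, fell from 11.30, 11.37, 11.28 and 11.30 to 11.01, 11.17, 11.07 and 11.03, by 0.24 ± 0.04 (adjusted p = 0.000294), and was called in all 16 settings. Ereg, an EGF receptor ligand, fell by 0.22 ± 0.06 (adjusted p = 0.0348), a call lost without 991 array 1, 2 or 3 and without any 1 of the vehicle arrays. These were the 3 called members of 25 insulin, IGF and growth factor genes, none of which rose, beside 1.58% of all genes called lower. In the list 1 call remained without 991 array 1 or 2 or vehicle array 1 or 3. None of the 3 was called in WT, and the genotypes differed for each (Vegfc 0.65, Irs1 0.25 and Ereg 0.38).

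In the Notch pathway 2 of 14 genes fell and none rose, beside 1.58% of all genes called lower. Rbpj, the DNA-binding factor through which all Notch receptors act (chr5:53555779-53657445), stood at 10.28, 10.28, 10.28 and 10.22 with vehicle and at 10.01, 9.96, 10.02 and 10.03 with 991. The groups were far apart relative to their spread, and all 3 probe sets were lower. The fall was 0.26 ± 0.03 (adjusted p = 1.68e-05). Rbpj rose in WT by 0.11 ± 0.03 (adjusted p = 0.0219), which made the difference between the genotypes 0.37 (95% interval 0.28 to 0.47, adjusted p = 7.01e-06). The Notch ligand gene Jag1 fell by 0.28 ± 0.07 (adjusted p = 0.0138), a call lost without vehicle array 1 (adjusted p = 0.0632); its difference from WT, 0.25, was not called (adjusted p = 0.131).

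Matrix genes changed in both directions, with 2 falls and 1 rise among 26, beside 1.58% of all genes called lower and 1.88% higher. Thbs2, an antiangiogenic thrombospondin, stood at 8.62, 8.69, 8.66 and 8.57 with vehicle and at 7.97, 8.17, 8.32 and 8.33 with 991, apart and lowest on array 1. Its fall of 0.44 ± 0.12 (adjusted p = 0.0375) was lost in 7 settings, with adjusted p up to 0.13, among them without any 1 of the vehicle arrays and without 991 array 1 or 2. Tenascin C (Tnc), an adhesion-modulating glycoprotein, fell by 0.22 ± 0.04 (adjusted p = 0.00203), and differed from WT by 0.26 (adjusted p = 0.00817). Lox, the collagen cross-linking enzyme, rose by 0.18 ± 0.05 (adjusted p = 0.0368), and its call was lost in 8 settings, among them without vehicle array 1 or 3 and 991 array 3 or 4. Has2, which makes hyaluronan, fell from 7.03, 6.97, 6.82 and 7.03 to 6.46, 6.50, 6.6 and 6.82 (-0.37 ± 0.07, adjusted p = 0.00242), with vehicle array 3 and 991 array 4 both at 6.82 after rounding. Sorbs2, an adaptor of actin stress fibres, fell by 0.39 ± 0.05 (adjusted p = 2.36e-05) in dKO and by 0.15 ± 0.05 (adjusted p = 0.0495) in WT, with the difference of 0.24 just inside the threshold (adjusted p = 0.0499) and 1 of its 4 probe sets lower with arrays apart.

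**Figure D3:**
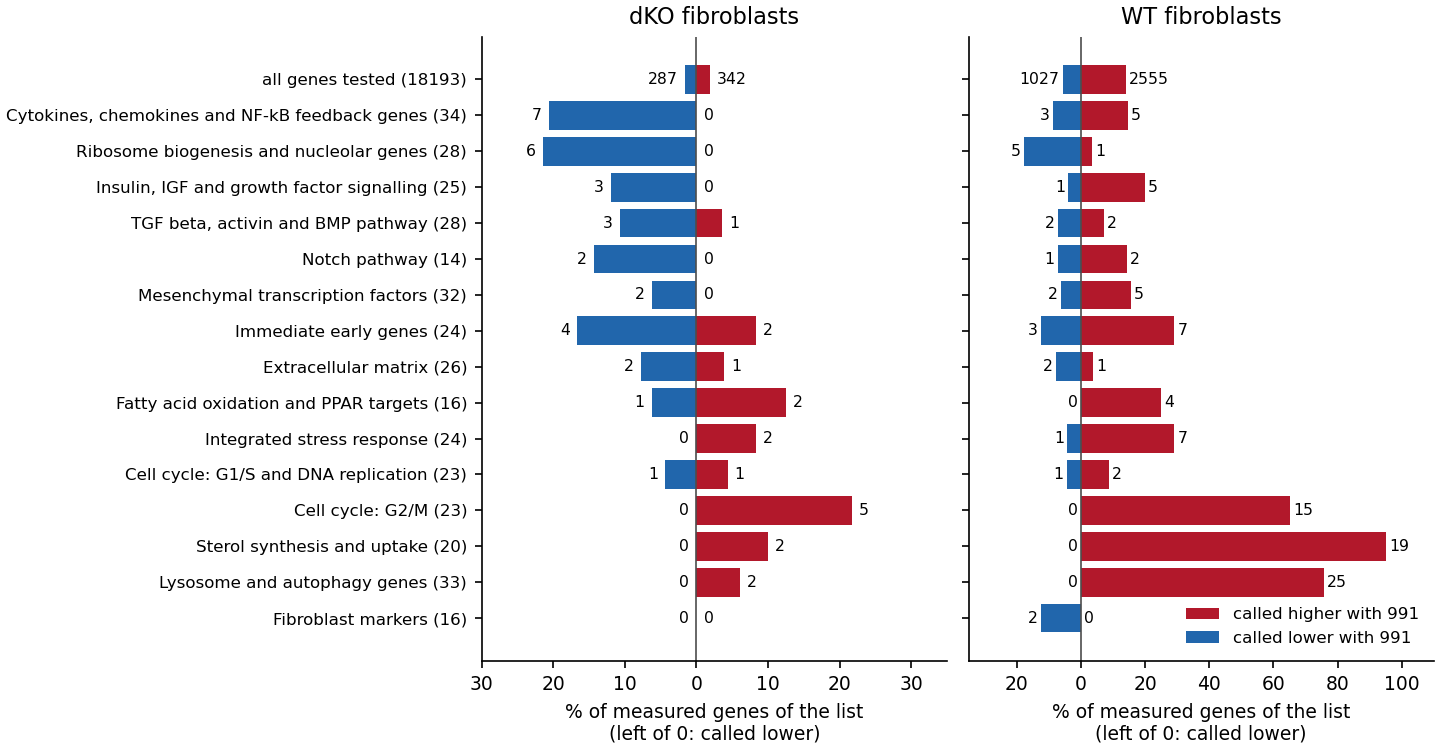
Share of the measured genes of 14 gene lists, of fibroblast markers and of all genes (y axis, number measured in brackets) called higher (right of 0) or lower (left of 0) with 991, as a percentage (x axis, different scales), in dKO and WT fibroblasts; numbers beside the bars count genes. In dKO 7 of 34 cytokine genes and 6 of 28 ribosome biogenesis genes were lower and 5 of 23 G2/M genes higher. In WT 19 of 20 sterol and 25 of 33 lysosome genes were higher. Lists were chosen with earlier results of these data known.

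Immediate early genes, which growth factors and stress induce within minutes, were split. Of 24, 2 rose and 4 fell in dKO (median -0.06), beside 1.88% of all genes called higher and 1.58% lower. Fosl1, the Fra-1 component of AP-1, stood at 11.54, 11.42, 11.51 and 11.58 with vehicle and at 11.33, 11.27, 11.21 and 11.29 with 991, apart, and fell by 0.24 ± 0.03 (adjusted p = 5.14e-05). Myc, the growth-promoting factor, fell from 10.57, 10.55, 10.48 and 10.54 to 10.27, 10.34, 10.30 and 10.41, by 0.20 ± 0.04 (adjusted p = 0.00151). Jun fell by 0.19 ± 0.04 (adjusted p = 0.00544) and Ier3, a regulator of survival, by 0.12 ± 0.03 (adjusted p = 0.0217), while both rose in WT (0.15, adjusted p = 0.0141, and 0.18, adjusted p = 0.000327).

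Egr1 and Fos, by contrast, were the 2 that rose. Egr1, a zinc finger factor, went from 11.77, 11.80, 11.87 and 11.89 to 12.01, 12.12, 12.13 and 12, a rise of 0.23 ± 0.05 (adjusted p = 0.00546). Fos went from 9.11, 9.16, 9.21 and 9.20 to 9.25, 9.46, 9.42 and 9.34, a rise of 0.19 ± 0.04 (adjusted p = 0.00862). Both kept their call in all 16 settings, Fos with adjusted p up to 0.0496. In WT, Egr1 changed by -0.00 ± 0.05 and Fos by -0.02 ± 0.05. The difference was called for Fos (-0.22, adjusted p = 0.0403), and for Egr1 it lay at the threshold (-0.24, adjusted p = 0.0501). All 20 MAP kinase feedback genes (such as dual-specificity phosphatases and Sprouty genes) had values below 0 in dKO (median -0.10), beside 8357 of 18193 over all genes. None of them was called, and 3 were called lower after quantile normalization.

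Of 28 ribosome biogenesis genes, 6 fell and none rose in dKO (median -0.07), beside 1.58% of all genes called lower, and 22 were not called. Changes below 0 numbered 24, beside 8357 of 18193 over all genes. In WT 5 fell and 1 rose (median -0.02), beside 5.65% of all genes called lower and 14% higher there. Rrs1, a ribosome assembly factor, stood at 11.55, 11.50, 11.45 and 11.48 with vehicle and at 11.30, 11.11, 11.29 and 11.32 with 991, lowest on array 2 and apart. It fell by 0.24 ± 0.03 (adjusted p = 7.59e-05) in dKO and by 0.18 ± 0.04 (adjusted p = 0.00116) in WT. Tsr1, needed for maturation of the small subunit, fell by 0.15 ± 0.03 in dKO and by 0.20 ± 0.03 in WT, and Nop2, an rRNA methyltransferase, by 0.17 ± 0.04 and 0.13 ± 0.04. The intervals of the difference, -0.04 to 0.17 for Rrs1, -0.13 to 0.03 for Tsr1 and -0.07 to 0.14 for Nop2, held 0. Gnl3 (nucleostemin), Wdr43 and Nob1 fell by 0.15, 0.13 and 0.12 in dKO and were not called in WT. Outside the list, Dimt1, an rRNA dimethyltransferase, stood at 9.48 to 9.52 on the vehicle arrays and at 9.03, 8.83, 9.32 and 9.31 with 991, a fall of 0.38 ± 0.07 (adjusted p = 0.00186).

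Cyclin D1 (Ccnd1), the driver of entry into the cycle, stood at 11.71, 11.72, 11.72 and 11.68 with vehicle and at 11.47, 11.51, 11.43 and 11.46 with 991. No arrays overlapped, all 3 probe sets were lower, and the fall of 0.24 ± 0.03 (adjusted p = 4.06e-05) was called in every setting; in WT it was 0.12 ± 0.03 (adjusted p = 0.0113). Of 23 G1/S and replication genes, Ccnd1 was the only fall and Cdc45, a helicase subunit, the only rise (0.14 ± 0.03, adjusted p = 0.0181), on 1 of its 2 probe sets; that call was lost without 991 array 3 or vehicle array 3.

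Of 23 G2/M genes, 5 rose and none fell (median 0.11), beside 1.88% of all genes called higher. Changes above 0 were found for 22 of 23, while over all genes 8357 of 18193 lay below 0. Without 991 array 1 the count was 8, and with the array width as a covariate it was 13; with the mean of all probe sets it was 3. Cenpe, the kinetochore motor, stood at 10.57, 10.54, 10.54 and 10.55 with vehicle and at 10.68, 10.77, 10.86 and 10.73 with 991, apart and highest on array 3. It rose by 0.21 ± 0.04 (adjusted p = 0.000688). The mitotic kinase gene Cdk1 rose by 0.12 ± 0.02 (adjusted p = 0.00185), and Cenpf, Nusap1 and the cyclin gene Ccnb2 by 0.14, 0.13 and 0.11; Cenpf and Nusap1 lost their call with the mean of their probe sets. In WT 15 of the 23 rose and none fell, with the same median of 0.11, beside 14% of all genes called higher there. No gene of the list was called in the difference between the genotypes, beside 5.28% of all genes. Ncapg, a condensin subunit outside the list, stood at 9.56, 9.55, 9.59 and 9.63 with vehicle and at 9.81, 9.86, 9.91 and 9.83 with 991, and rose by 0.27 ± 0.04 in dKO (adjusted p = 0.000137) but changed by 0.03 ± 0.04 in WT (difference -0.24, adjusted p = 0.0108).

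Among genes at or above the median level whose arrays did not overlap, the largest rise was that of Fam241a, and the largest rises had varied roles. Mpg, a DNA glycosylase of base excision repair, had a larger called rise (0.42 ± 0.11, adjusted p = 0.0277), with overlapping arrays. Its vehicle level was low in dKO (5.04) against 9.13 in WT. Other larger called rises outside this selection included Fndc3c1 (0.41 ± 0.09), Tph1 (0.39 ± 0.10) and Depdc7 (0.37 ± 0.08). Fam241a, a little-studied gene, stood at 7.53, 7.61, 7.56 and 7.52 with vehicle and at 7.95, 7.88, 7.75 and 7.88 with 991. It rose by 0.31 ± 0.05 (adjusted p = 0.000688). Polr3f, a subunit of RNA polymerase III, stood at 9.01, 8.91, 8.96 and 9.04 with vehicle and at 9.25, 9.23, 9.27 and 9.24 with 991, a rise of 0.27 ± 0.04 (adjusted p = 0.000491). It was the brightest of 5 Polr3f probe sets and the only one whose arrays were apart, and the call was lost with their mean. Rises were also called for Mppe1, a phosphoesterase that remodels GPI anchors (0.30), Lars2, the mitochondrial leucyl-tRNA synthetase (0.28), the kinase gene Pdik1l (0.28), the sarcoglycan gene Sgcb (0.28), the gamma-secretase subunit gene Aph1b (0.26) and Gnpda2, a glucosamine-6-phosphate deaminase (0.26). Lars2 and Sgcb lost their call with the mean of their probe sets. Bnip3, a mitophagy receptor of the hypoxia list, rose by 0.22 ± 0.03 in dKO (adjusted p = 6.44e-05) and by 0.30 in WT.

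Calls in metabolic and stress programmes are listed next, beside 3.46% of all genes called in either direction. Of 16 fatty acid oxidation and PPAR genes, Acot2, a mitochondrial acyl-CoA thioesterase, rose by 0.23 ± 0.05 (adjusted p = 0.00646) and Acadm, the medium-chain acyl-CoA dehydrogenase, by 0.12 ± 0.03 (adjusted p = 0.026, lost without 991 array 2 or 3 or vehicle array 1 or 2), while the lipid droplet coat gene Plin2 fell by 0.13 ± 0.03 (adjusted p = 0.00685). Of 24 integrated stress response genes 2 rose, Mthfd2 (0.13, adjusted p = 0.0225) and Vldlr (0.25, adjusted p = 0.0174). Neither was called without vehicle array 2, vehicle array 3 or 991 array 3, or with the mean of its probe sets. Gadd45b, a stress sensor, rose by 0.21 ± 0.04 in dKO (adjusted p = 0.000862) and by 0.19 ± 0.04 in WT (adjusted p = 0.00114). None of 19 NRF2 targets, 9 aryl hydrocarbon receptor targets, 23 respiratory chain and mitochondrial biogenesis genes or 9 sterol efflux genes was called in dKO.

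Whether the responses without AMPK were also seen with it was asked in 2 ways. Of the 629 genes, 226 were called in WT in the same direction, 175 higher and 51 lower; these are 35.9% of the dKO calls and 6.31% of the WT calls. Another 28 were called in the opposite direction, and 375 were not called in WT. The difference between the 991 effects was called for 961 of all 18193 genes (5.28%) and for 142 of the 629 (22.6%). Of the called falls, 108 differed, each with the higher change in WT. Of the called rises, 34 differed, 24 with the lower and 10 with the larger change in WT. The difference is computed from the same dKO arrays that chose the 629 genes, so their share and the directions follow in part from that choice, and nothing is read from them. The median WT change was 0.11 over the genes that rose in dKO and -0.02 over those that fell. The counts were not stable. The shared genes numbered 111 to 142 without any 1 of the vehicle arrays, 123 and 149 without 991 arrays 3 and 4, and 149 without WT 991 array 3. The genes that differed numbered 74, 80 and 91 without vehicle arrays 1, 2 and 3 and 93 without 991 array 2. The 961 differences over all genes became 501, 549 and 611 without WT 991 array 2, WT 991 array 3 and WT vehicle array 1, and 620 and 622 without dKO 991 array 1 and dKO vehicle array 3. They became 1503 without dKO 991 array 3 and 1712 without WT vehicle array 2.

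**Figure D4:**
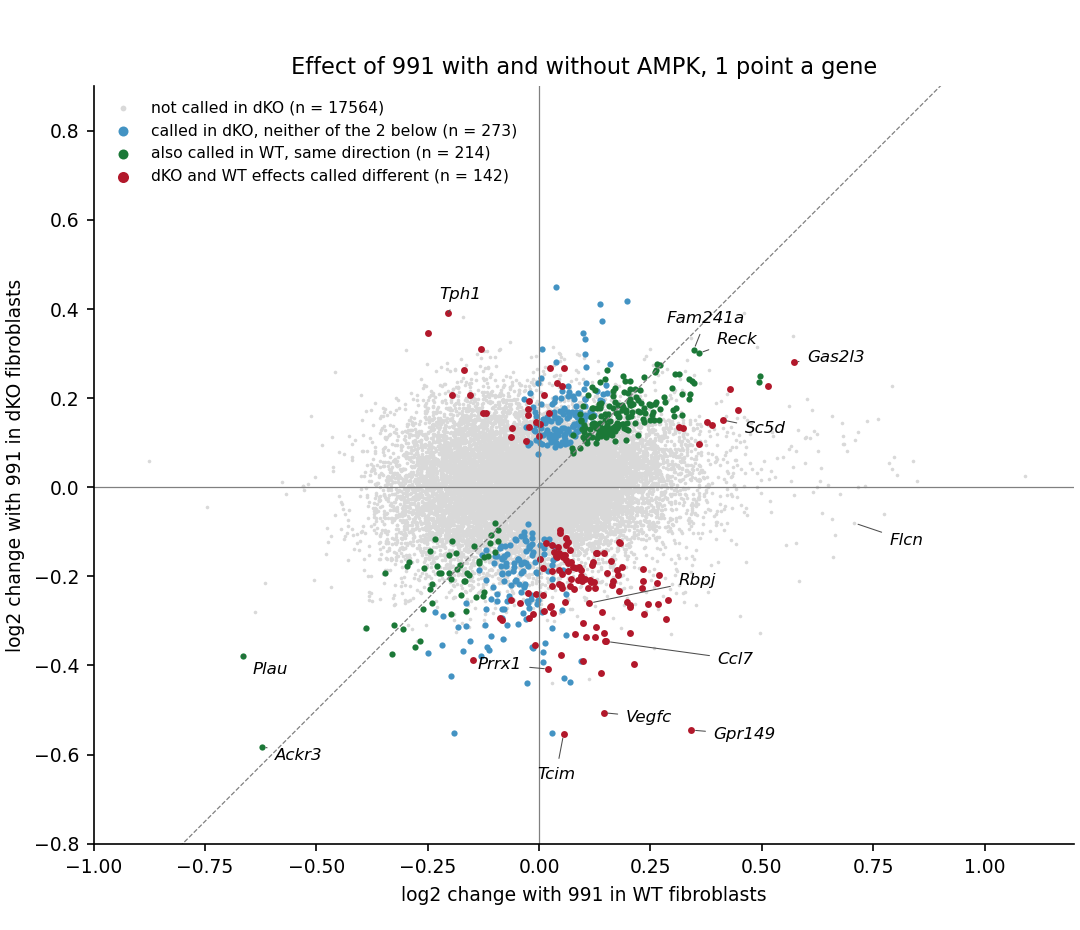
Log2 change with 991 in dKO fibroblasts (y axis) against WT fibroblasts (x axis), 1 point a gene; the dashed line marks equal changes. Of genes called in dKO, red points (142) were called in the difference between the genotypes, green points are others called in WT in the same direction, and blue points the rest; Ackr3 and Plau lie low in both genotypes, and Flcn, not called in dKO, lies at -0.08 and 0.71.

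Shared responses were led by Ackr3 (-0.58 in dKO and -0.62 ± 0.10 in WT; difference -0.04, 95% interval -0.33 to 0.25). Plau, the urokinase plasminogen activator, stood at 6.02, 6.25, 6.04 and 6.02 with vehicle and at 5.70, 5.67, 5.52 and 5.93 with 991. It fell by 0.38 ± 0.09 in dKO (adjusted p = 0.0143) and by 0.66 ± 0.10 in WT (adjusted p = 1.43e-05), with a difference of -0.29 (95% interval -0.56 to -0.02) that was not called. Its dKO call was lost without vehicle array 2 or 991 array 3 and with the mean of its probe sets. Plpp3, a phosphatase that degrades lysophosphatidic acid, stood at 8.07, 8.01, 8.01 and 8.0 with vehicle and at 7.60, 7.77, 7.68 and 7.80 with 991, a fall of 0.31 ± 0.05 (adjusted p = 0.000387) beside 0.33 ± 0.05 in WT (adjusted p = 6.38e-05). The interval of the difference was -0.16 to 0.13.

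On the side of shared rises, Reck, a membrane inhibitor of matrix metalloproteases, stood at 6.64, 6.59, 6.61 and 6.47 with vehicle and at 6.74, 6.83, 6.95 and 7.00 with 991. It rose by 0.30 ± 0.08 in dKO (adjusted p = 0.0284, lost without any 1 of the 4 vehicle arrays or without 991 array 3 or 4, up to 0.095) and by 0.36 ± 0.09 in WT. Fam241a rose by 0.35 ± 0.06 in WT (interval of the difference -0.12 to 0.20). Gas2l3, a linker of actin and microtubules at the midbody, stood at 10.20, 10.27, 10.33 and 10.18 with vehicle and at 10.44, 10.57, 10.53 and 10.56 with 991, with all 3 probe sets apart. Its rise of 0.28 ± 0.05 in dKO (adjusted p = 0.0007) was exceeded by 0.57 ± 0.05 in WT (difference 0.29, 95% interval 0.15 to 0.43, adjusted p = 0.0122).

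Among genes whose response differed, several had unlike levels in the cell lines before treatment. Gpr149, an orphan receptor, stood at 7.65, 7.13, 7.2 and 7.28 with vehicle and at 6.45, 6.52, 7.16 and 6.95 with 991, with 991 array 3 above vehicle array 2, and at 3.22 ± 0.14 in WT with vehicle. Its change was -0.54 ± 0.14 in dKO (adjusted p = 0.0272, lost in 5 settings, among them without 991 array 1 or 2 and vehicle array 1 or 4) and 0.34 ± 0.15 in WT (adjusted p = 0.112). Tcim, a regulator of Wnt signalling, stood at 6.29, 6.32, 6.36 and 5.98 with vehicle and at 5.43, 5.58, 5.93 and 5.79 with 991, apart; it fell by 0.55 ± 0.10 (adjusted p = 0.00186) from a level of 6.24 ± 0.18, against 4.50 ± 0.11 in WT. Vegfc stood at 8.21 ± 0.09 in dKO and at 5.86 ± 0.12 in WT with vehicle. Prrx1, Ccl7 and Inhba were the reverse, lower in dKO (8.37, 7.23 and 9.01) than in WT (11.47, 8.11 and 10.83). Rbpj and Myc had closer levels in the genotypes (10.27 and 10.04, 10.53 and 10.41) and differed in response by 0.37 and 0.31. How the starting level bears on these differences was not tested.

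**Figure D5:**
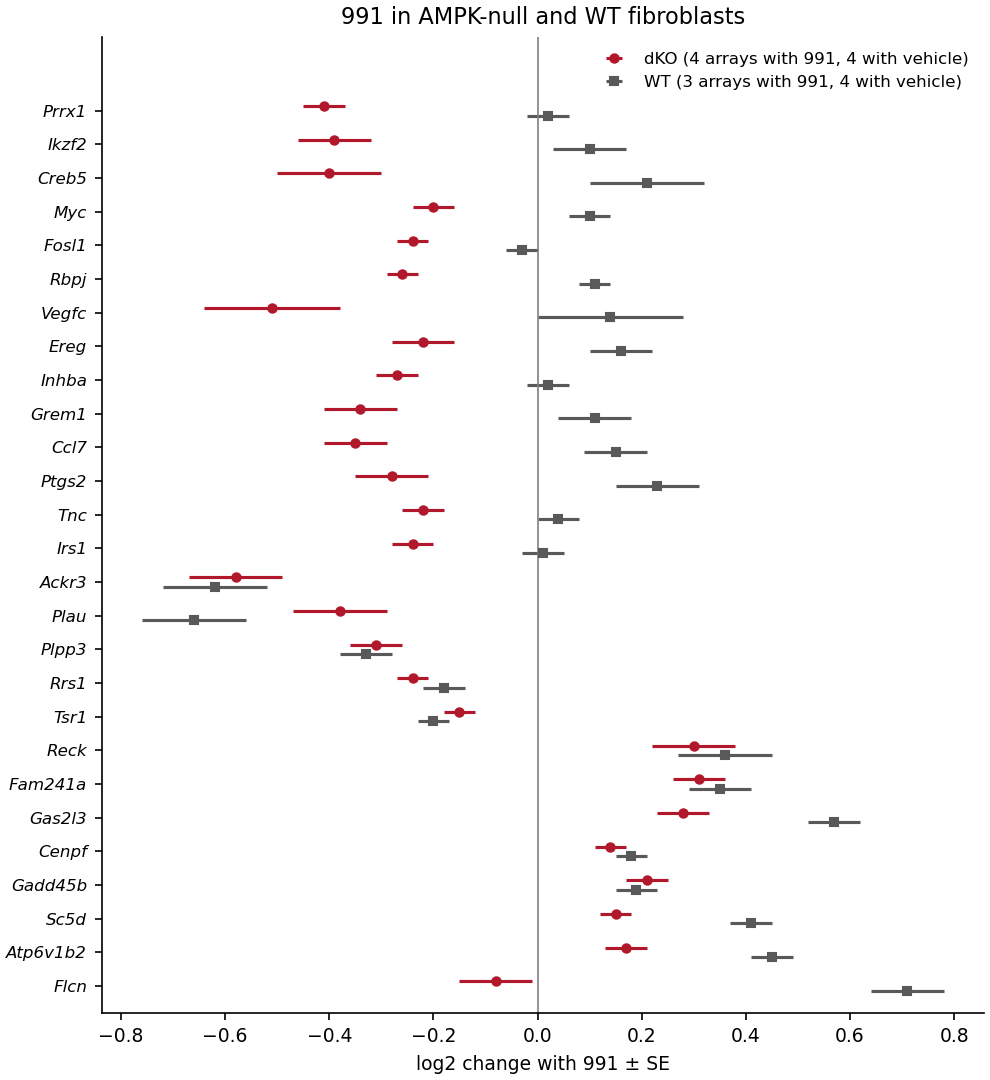
Log2 change with 991 ± SE (x axis) of 27 genes (y axis) in dKO (circles) and WT (squares) fibroblasts. The upper genes, such as Prrx1 (-0.41 and 0.02) and Rbpj (-0.26 and 0.11), fell in dKO and not in WT; Ackr3, Plpp3 and Rrs1 fell in both, Reck and Fam241a rose in both, and Flcn rose in WT only.

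AICAR at 2 mM was given to the same dKO cells for 4 h, and its arrays were set against the same 4 vehicle arrays, so its values are listed without a test. Log2 changes with AICAR were -0.44 ± 0.04 for Prrx1, -1.23 ± 0.09 for Ackr3, -0.66 ± 0.06 for Ccl7, -1.98 ± 0.04 for Irs1, -1.63 ± 0.07 for Has2 and -1.57 ± 0.07 for Jag1, each gene called lower with 991. Some had opposite signs: Il6 changed by 1.29 ± 0.10 with AICAR and by -0.37 with 991, Gadd45b by -0.92 ± 0.04 and 0.21, Egr1 by -0.55 ± 0.05 and 0.23, and Ncapg by -0.17 ± 0.04 and 0.27. Rrs1 changed by 0.06 ± 0.03 and Dimt1 by -0.09 ± 0.07 with AICAR. The compounds differ in dose, and no comparison between them was made.

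In dKO hepatocytes, treated with 3 µM, 1 gene was called (0.0055% of 18193), Cited2, a transcriptional coregulator that fell by 0.58 ± 0.06 (adjusted p = 0.0145; limma on preparation means, n = 2 preparations). With no preparation as a block, 0 genes were called. At an unadjusted p under 0.05 there were 819 of 18193 genes. Of the 342 genes that rose in dKO MEFs 197 had the same sign in dKO hepatocytes (median 0.01), and of the 287 that fell 143 did (median 0.00). Prrx1 changed by 0.03 there, Ackr3 by 0.32, Rbpj by -0.03 and Ccnd1 by -0.04, and none was called. Dose, cell type and number of preparations all differ from those of the MEFs. The unit of the test differs too: hepatocyte arrays were averaged per preparation, while each MEF array counted as a sample. With every hepatocyte array taken as a sample, 783 genes were called. The counts of calls in the MEFs and in the hepatocytes therefore cannot be set against each other.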

How the data were processed

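Values were analysed as deposited: log2 intensities of 45101 Affymetrix probe sets, made with RMA and Partek per the submitters' processing notes. The labels do not say if both cell types went through RMA in one run; RMA draws all arrays to one distribution, so a shift of most genes in one direction would not be seen. Probe sets with 1 gene symbol (34945) were kept, 932 with several symbols and 9160 with none were left out, and the brightest probe set over the fibroblast arrays stood for its gene (18193 genes, 9010 of them with over 1 probe set).

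The 23 MEF arrays were fitted with 6 group means in limma 3.58.1 (R 4.3.3; lmFit, eBayes with an intensity trend, 17 residual degrees of freedom), and p-values were adjusted by Benjamini-Hochberg over 18193 genes; 95% intervals used 29.9 degrees of freedom. Submitters left out 1 WT array with 991. Hepatocyte arrays were averaged to 12 preparation means and fitted with the preparation within genotype as a block (4 residual degrees of freedom). On simulated data of the dKO comparison (18193 genes), 51% of 100 changes of 0.3 and 99% of 100 changes of 0.6 were recovered, and 3.23% of calls were false. The simulated noise was independent between genes, with no shift shared by the genes of an array. The median called changes (0.16 and -0.21) were smaller than those simulated. These rates therefore need not hold for the real arrays. The number of arrays limits the precision.

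Named genes were Prkaa1, Prkaa2 and Flcn, the 14 largest called rises and falls among genes at or above the median level with groups apart, up to 4 called members of each list with at least 2 calls, and the 8 largest changes shared with WT and the 8 largest differing from it. Other list members, markers and Cited2 were named after their values were seen. Members and lists were chosen with earlier results of these data known. Alternatives tried were quantile normalization, leaving out genes below the median level, averaging probe sets, no intensity trend, the replicate number as a block, the array width as a covariate, fewer arrays in the fit, and each array left out. Tables and plots were made with Python 3.11.15, pandas 2.3.3 and matplotlib 3.10.9.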

Additional observations from a re-analysis of the deposited data

Results flagged for a closer look

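In 10 of 160 groups of 4 arrays of the named genes, a single array stood further from the others than Dixon's 95% limit for 4 values, which chance gives in about 1 in 20 groups. Vehicle array 1 was high for Lars2 (7.32) and low for Hyls1 (8.27) and Tph1 (3.79). Vehicle array 2 was high for Plau (6.25), vehicle array 3 low for Gnl3 (11.45), and vehicle array 4 low for Mast4 (7.32) and Rbpj (10.22). With 991, array 3 was high for Vldlr (8.13) and low for Tmem210 (5.55), and array 2 low for Rrs1 (11.11).

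The effect of 991 differed between the genotypes (limma, WT minus dKO, adjusted over all genes) for 28 of the 77 named genes called in dKO. Flcn, not called in dKO, differed too (0.79). The share over all 18193 genes was 5.28%. Of the named genes, 8 were chosen for this difference and most others for a dKO change that enters it. The count follows in part from that choice, and nothing is read from it. Values above 0 were 0.89 for Gpr149, 0.65 for Vegfc, 0.61 for Tcim and Creb5, 0.55 for Cd300lb, 0.52 for Ptgs2, 0.50 for Ccl7, 0.49 for Ikzf2, 0.44 for Grem1, and 0.43 for Prrx1 and Dimt1. They were 0.38 for Ereg, 0.37 for Rbpj, 0.34 for Mast4, 0.31 for Myc, 0.29 for Inhba and Gas2l3, 0.27 for Atp6v1b2, 0.26 for Tnc and Sc5d, 0.25 for Irs1, 0.24 for Sorbs2, 0.21 for Fosl1 and 0.14 for Plin2. Values below 0 were -0.60 for Tph1, -0.24 for Ncapg, -0.22 for Fos and -0.21 for Polr3f.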

How the results depend on the processing

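The 629 calls in dKO fibroblasts became 344 with no intensity trend and 1210 with the array width as a covariate, and ranged from 302 to 539 with 1 array left out. The WT calls became 2322 after quantile normalization and 1101 with the width covariate, with 1889 to 4802 when 1 array was left out. The differences between the genotypes became 382 with the width covariate, and 501 to 1712 with 1 array left out. In dKO hepatocytes the 1 call became 0 with no preparation block and 783 with every array taken as a sample; each preparation alone gives a value with no test. With the replicate number as a block, 667 genes were called in dKO fibroblasts. Deviations of same-numbered arrays of the 2 groups correlated at -0.23 to 0.11 (n = 4 pairs). So few pairs cannot settle whether the numbers pair the arrays. Prkaa1, not called, ranged from -0.07 to 0.14 with 1 array left out, and was below 0 without 991 array 3 (-0.07), 991 array 4 (-0.03) or vehicle array 3 (-0.01), and Bmpr2 turned to -0.06 with the mean of its probe sets. Of 77 called named genes, 39 kept their call in every setting that tested them; 22 lost it with the mean of probe sets and 17 with no intensity trend. The cause of these shifts was not tested.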
